A study of Homo sapiens with 79 samples.

Results

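The RNAs described here are short, folded noncoding RNAs made by RNA polymerase III, chosen by gene symbol from a list of 5: RN7SK, RN7SL1, RN7SL2, RMRP and RPPH1. Rows were taken for 3 of them, RN7SL1 (ENSG00000258486.2), RMRP (ENSG00000269900.2) and RPPH1 (ENSG00000259001.2), among 48453 genes in the deposited gene table, while RN7SK and RN7SL2 were not analysed here. All 3 passed the filter on low values that left 25442 genes for testing. The samples were K562 cells, an established human leukemia line with erythroid features, with no treatment other than the assay itself. In fRIP (formaldehyde RNA immunoprecipitation), lightly fixed cells were lysed, an antibody against 1 protein was added, and the RNA that came with it was sequenced next to input RNA from lysate. The panel held 6 RNA binding proteins (RBPs), namely PABP, IMP1, HUR, HNRNPU, HNRNPH1 and ADAR. The other 18 were chromatin associated proteins (CAPs): the Polycomb proteins EZH2 and SUZ12, the methyltransferase partners WDR5 and RBBP5, CBX3 and its modified form phospho-CBX3, the remodelers CHD1, CHD4 and CHD7, the acetyltransferases CBP and PCAF, HDAC1, LSD1, PHF8, DNMT1, CTCF, NUP98 and STAG2. The study chose STAG2 as a control for background binding, and then reported that its fRIP reproducibly enriched a small group of RNAs. There were 3 libraries for each of 22 proteins and 2 each for EZH2 and STAG2, which made 70 fRIP libraries, and 9 input libraries in 3 sets of 3. The cells' labelled identity was checked on input: the fetal globin mRNA HBG2 lay between 178 and 1084 FPKM, while the liver marker ALB and the keratinocyte marker KRT5 stayed at or below 0.364 FPKM.

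These RNAs work inside stable ribonucleoprotein particles. RN7SL1 encodes 7SL RNA, the scaffold of the signal recognition particle that docks ribosomes making secreted proteins onto the endoplasmic reticulum, and Alu repeats derive from it. RMRP is the RNA of RNase MRP, which cuts ribosomal RNA precursors in the nucleolus, and RPPH1 (H1 RNA) is the RNA of RNase P, which trims the 5′ leader of tRNA precursors, with most protein subunits shared between both enzymes. All of them are abundant housekeeping RNAs of dividing cells.

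The sequences are shown because they decide which reads can be counted for RMRP and RPPH1. The gene tables were made from paired reads of 31 bases, so capitals mark bases that lie in at least 1 stretch of 31 bases found once in the GRCh37 genome, and every base shown lies in one. RMRP is given over its deposited locus (chr9:35657748-35658015, minus strand, a single exon). For RPPH1 the counted transcript is a 638-base single-exon RNA at chr14:20811207-20811844 on the minus strand, which is longer than H1 RNA itself, and the 288 bases shown (chr14:20811259-20811546, bases 299 to 586 of it) are those that align with the annotated pseudogene RPPH1-3P at 77.9% identity.
RMRP: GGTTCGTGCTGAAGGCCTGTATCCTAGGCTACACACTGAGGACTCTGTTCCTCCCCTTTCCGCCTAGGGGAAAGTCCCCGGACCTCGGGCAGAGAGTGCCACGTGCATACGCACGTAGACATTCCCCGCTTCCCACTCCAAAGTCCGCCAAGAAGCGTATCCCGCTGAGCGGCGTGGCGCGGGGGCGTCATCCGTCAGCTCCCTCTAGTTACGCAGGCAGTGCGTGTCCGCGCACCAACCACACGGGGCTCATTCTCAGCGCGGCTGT
RPPH1: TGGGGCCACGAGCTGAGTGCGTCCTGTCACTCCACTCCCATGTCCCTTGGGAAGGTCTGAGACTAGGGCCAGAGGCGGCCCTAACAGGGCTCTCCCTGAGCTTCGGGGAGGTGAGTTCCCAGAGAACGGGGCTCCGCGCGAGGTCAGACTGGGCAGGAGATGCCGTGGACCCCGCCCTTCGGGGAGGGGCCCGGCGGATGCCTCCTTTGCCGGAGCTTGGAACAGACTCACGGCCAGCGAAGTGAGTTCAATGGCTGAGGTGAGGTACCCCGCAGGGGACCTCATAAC

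Of the stretches of 31 bases in RMRP, 237 of 238 were unique in the genome, as were all 608 in the RPPH1 transcript. 7SL RNA is known for near-identical gene copies and many pseudogenes, and how reads shared among them were counted is not given in the sources used here. Values called RN7SL1 below are those of its row, and their absolute height against RMRP or RPPH1 is uncertain. RMRP and RPPH1 have a similar base composition, with 63.1% G and C in RMRP and 59.4% in the RPPH1 transcript. Their predicted minimum free energy folds pair 59.7% and 67.4% of the bases of the sequences shown for RMRP and RPPH1. The RPPH1 transcript overlaps an exon of PARP2, on the opposite strand, by 71 bases that are outside the sequence shown. The library kit named by the study does not mark strand, so reads of those 71 bases cannot be told apart from PARP2. RMRP has no other annotated gene over it, and CCDC107 starts 272 bases away.

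FPKM (fragments per kilobase of transcript per 1e6 mapped) moves in steps of 1 fragment in genes with a single isoform. The size of the step gives an estimate of each library's depth on the scale of the deposited FPKM. Of these low values, 98.0% to 99.6% per library lay within 0.15 of a whole number of fragments, and the libraries came out at 1.91 to 57.2 M (mega) fragments with a median of 14.2 M. By this estimate the ADAR libraries were the shallowest, at 1.91 to 2.20 M. The estimate was not checked against read counts, and a rescaling of FPKM between libraries would move it. Together the 3 RNAs made up 0.622% to 1.07% of the FPKM sum of an input library (median 0.918%) and 0.0424% to 1.19% of that of a fRIP library (median 0.300%). The 3 input sets differed in these RNAs. RPPH1 was lowest in set 1 and highest in set 3, with no overlap between sets, and the highest set mean was 2.29-fold the lowest, against 1.38-fold for RMRP and 1.32-fold for RN7SL1. Each fRIP was therefore also compared with the 1 input set that matched the input values in the deposited comparison of that protein, called the nearest set: set 1 for 13 proteins, set 2 for 5 and set 3 for 6. The next set was at least 45.4 times farther away.

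RN7SL1 was lower than input in most of the panel and above every input library in none. Its input libraries held 203, 147 and 163 FPKM in set 1, 255, 199 and 208 FPKM in set 2 and 269.7, 174 and 231 FPKM in set 3, a mean of 205 ± 41.1 FPKM (SD, n = 9). A call of depletion or enrichment needed an adjusted p under 0.05 in a limma fit over all tested genes and a change of more than 2-fold on the log2(FPKM + 1) scale. By this rule RN7SL1 was depleted in 18 of 24 fRIPs and enriched in 0. With the exact permutation test for each protein, it was lower in 20 fRIPs and higher in 0 after Benjamini-Hochberg adjustment over the 72 tests of 3 RNAs and 24 proteins. That test cannot give a two-sided p below 0.00455 with 3 libraries against 9, or below 0.0182 with 2. All libraries of 20 fRIPs lay below all 9 inputs, and the other 4 fRIPs (ADAR, CBP, CTCF and STAG2) overlapped the inputs.

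The lowest mean RN7SL1 level was that of HUR, a protein that binds AU-rich mRNA elements, with libraries at 3.60, 7.79 and 11.4 FPKM. This was 25.6-fold below input (log2 fold change -4.68 ± 0.25, SE; adjusted p = 2.60e-23, limma). PHF8, a histone demethylase, held 4.72, 3.57 and 21.9 FPKM, 24.1-fold below input. The third PHF8 library stood above the other 2, and without it the fall was 39.7-fold, larger than that in HUR. DNMT1, a DNA methyltransferase, followed at 9.81, 9.72 and 17.4 FPKM, then SUZ12, a subunit of Polycomb repressive complex PRC2, at 12.1, 15.7 and 9.39 FPKM. In WDR5, a subunit of histone methyltransferase complexes, the libraries held 13.6, 10.9 and 18.4 FPKM. The ranges of these 5 proteins overlapped one another, and all their libraries were at or below 21.9 FPKM.

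In the mean, the other called fRIPs lay above these 5. The third PHF8 library was above some libraries of PABP, PCAF and CHD4. Mean RN7SL1 levels (± SD, n = 3, except n = 2 for EZH2) were 22.0 ± 0.469 in PABP, 23.2 ± 4.86 in PCAF, 25.7 ± 5.54 in CHD4, 25.8 ± 1.25 in EZH2, 30.5 ± 4.65 in CHD7, 30.7 ± 6.36 in NUP98 and 41.1 ± 9.41 in IMP1 FPKM. They were 42.5 ± 6.95 in HNRNPH1, 45.3 ± 6.92 in HDAC1, 55.9 ± 16.9 in CHD1, 58.7 ± 7.85 in RBBP5, 61.2 ± 10.6 in CBX3 and 71.2 ± 4.39 in LSD1 FPKM in the rest of the called group. PABP, which binds the poly(A) tail of mRNAs, held 22.5, 21.7 and 21.8 FPKM. The 6 fRIPs without a call were HNRNPU, a nuclear matrix RBP, at 102, 113 and 113 FPKM, phospho-CBX3, a modified heterochromatin protein, at 106, 106 and 119 FPKM, and the 4 that overlapped input. The first 2 were below every input, 1.84-fold and 1.83-fold in the mean, which is short of the 2-fold limit. STAG2 held 174 and 179 FPKM, ADAR, an RNA editing enzyme, 172, 192 and 179 FPKM, CBP, a histone acetyltransferase, 167, 176 and 297 FPKM and CTCF, a DNA-binding insulator protein, 299, 228 and 224 FPKM. CTCF was the highest in the mean, 1.23-fold above input at an adjusted p of 0.523 (limma), so a difference was not detected. Among the 24 pairs of neighbours in the order of means, input included, 21 had overlapping libraries. The breaks were between STAG2 and phospho-CBX3, between HNRNPU and LSD1, and between PABP and WDR5. The highest fRIP mean was 33.0-fold the lowest, while the 9 inputs spanned 1.84-fold.

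**Figure D1:**
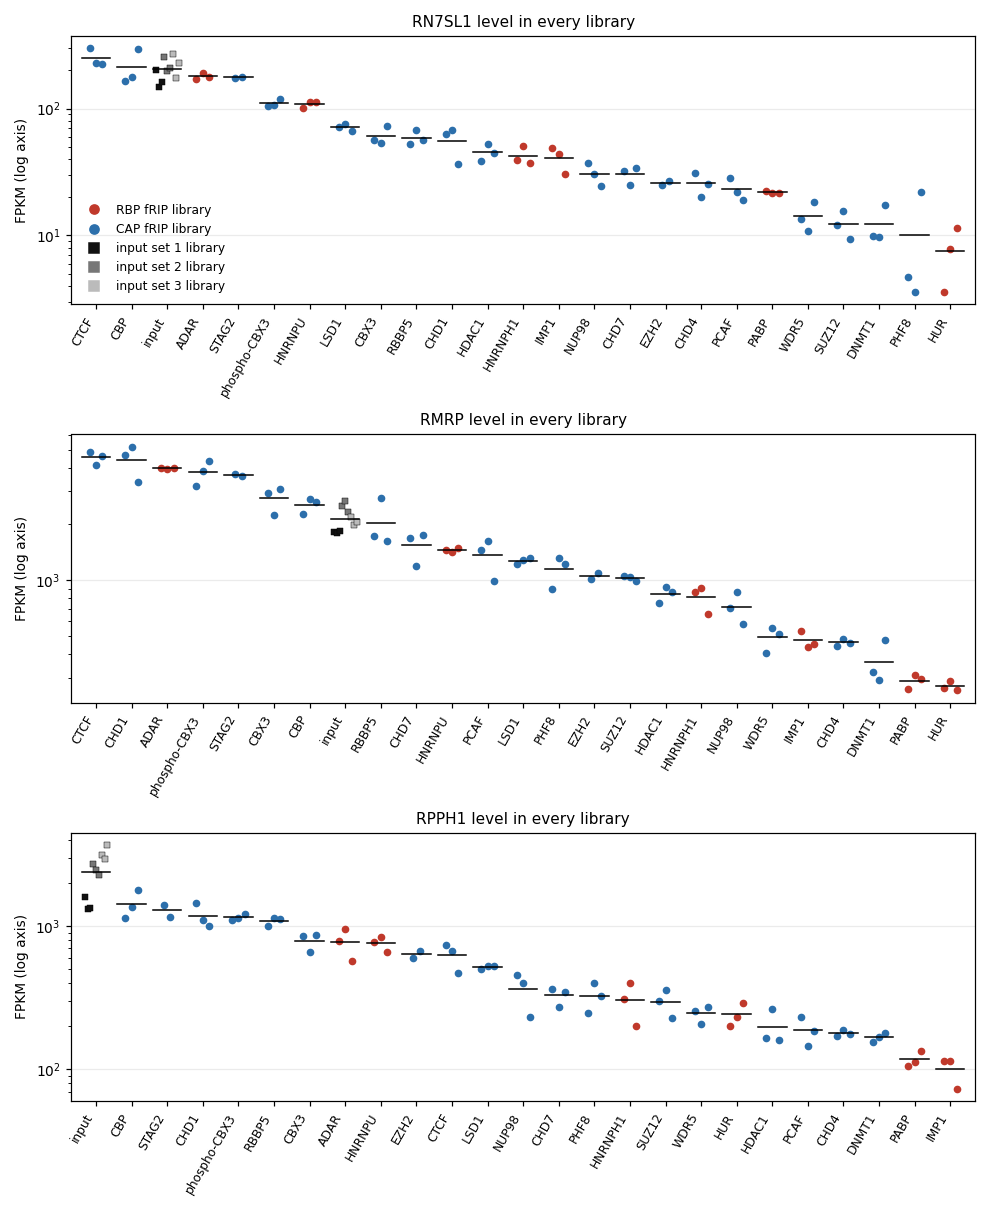
FPKM of RN7SL1, RMRP and RPPH1 in all 79 libraries on log axes, with fRIPs and input ordered by their mean (horizontal bars), circles for fRIP libraries (RBPs red, CAPs blue) and squares for input libraries shaded by set. RN7SL1 and RPPH1 lay at or below the input range in every fRIP except for single CTCF and CBP libraries of RN7SL1, while RMRP had 5 fRIPs above every input.

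RMRP moved in both directions. Its input libraries held 1802, 1794 and 1823 FPKM in set 1, 2506, 2642 and 2314 FPKM in set 2 and 2177, 1981 and 2044 FPKM in set 3, a mean of 2120.5 ± 313 FPKM (SD, n = 9). Every library of CTCF (4857, 4124 and 4642 FPKM) was above every input, as was every library of CHD1, a chromatin remodeler (4683, 5183 and 3340.2 FPKM). RMRP was called enriched in these 2 fRIPs, by 2.16-fold in CTCF (log2 fold change 1.11 ± 0.15, SE; adjusted p = 2.92e-07, limma) and by 2.06-fold in CHD1 (1.04 ± 0.15; adjusted p = 1.85e-06). The CTCF call held against its nearest input set (log2 fold change 1.33), and the CHD1 call did not (0.80), nor did it without CHD1 replicate 1 (0.99) or replicate 2 (0.91). CHD1, NUP98, PCAF and WDR5 are the proteins whose replicate numbers paired with those of their input set, and with the replicate number as a block the CHD1 value was again 0.80, with an adjusted p of 0.00792 (limma).

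Another 3 fRIPs had every RMRP library above every input without reaching 2-fold. They were ADAR (3999, 3917 and 4003 FPKM), phospho-CBX3 (3190.1, 3847 and 4366 FPKM) and STAG2 (3693 and 3597 FPKM). Against input set 1 alone, their nearest set, the log2 fold changes were 1.14, 1.06 and 1.01, and all 3 passed both limits. STAG2 was the study's control for background binding. ADAR depends on the scale: its FPKM sum per library was larger than that of input, and when every library was set to the same FPKM sum of the other genes, RMRP in ADAR turned from 0.92 to -0.79, and to -0.060 with libraries centred on their medians. In the remaining fRIPs near input, CBX3 held 2917, 2230.3 and 3064 FPKM, CBP 2249, 2727 and 2607 FPKM and RBBP5, a partner of WDR5, 1721, 2767 and 1611 FPKM. All 3 overlapped the input range.

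RMRP was depleted in 10 fRIPs, and all libraries of 16 were below every input. HUR was lowest at 264, 288 and 256 FPKM, 7.77-fold below input (log2 fold change -2.96 ± 0.15, SE; adjusted p = 7.91e-24, limma). PABP was next at 262, 308 and 297 FPKM, 7.26-fold below input, and overlapped HUR. The other called fRIPs had means of 363 ± 98.0 in DNMT1, 463 ± 21.5 in CHD4, 475 ± 51.4 in IMP1, 493 ± 78.5 in WDR5, 717 ± 139 in NUP98, 807 ± 129 in HNRNPH1, 845 ± 83.5 in HDAC1 and 1024 ± 31.4 in SUZ12 FPKM (± SD, n = 3). SUZ12 stood at the edge of the 2-fold limit (-1.04) and was not called against its nearest set (-0.82) or without input set 2 replicate 2 (-0.99). Just on the other side, EZH2, the catalytic subunit of PRC2, had 1009.5 and 1095 FPKM and a log2 fold change of -0.998. It was called, at -1.003 to -1.06, without EZH2 replicate 2, without any 1 library of input set 1 or without replicate 2 or 3 of input set 3. PHF8, PCAF, LSD1, HNRNPU and CHD7 were also below every input, at log2 fold changes of -0.90, -0.66, -0.72, -0.53 and -0.46, and PHF8 was called without its replicate 2 (-1.01). The exact permutation tests gave 16 fRIPs with lower and 6 with higher RMRP after the same adjustment. Here too 21 of 24 neighbours in the order overlapped, and the highest mean was 16.8-fold the lowest, against 1.47-fold over the inputs.

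RPPH1 was lower than input in the mean of all 24 fRIPs. The input libraries held 1602, 1317 and 1347 FPKM in set 1, 2721, 2472 and 2285 FPKM in set 2 and 3169, 2928 and 3689 FPKM in set 3, a mean of 2392 ± 835 FPKM (SD, n = 9). It was depleted in 20 fRIPs and enriched in 0, and the exact permutation tests found it lower in 22 and higher in 0. These tests treat the 9 inputs as 1 group, although RPPH1 did not overlap between the sets. IMP1, an mRNA binding protein, had the lowest mean, with libraries at 114, 115 and 73.3 FPKM, 22.6-fold below input (log2 fold change -4.50 ± 0.22, SE; adjusted p = 3.78e-24, limma). PABP held 106, 113 and 134 FPKM, 19.1-fold below input. The libraries of these 2 fRIPs overlapped, and their order depends on the input set. Against its nearest set, set 1, IMP1 was 14.2-fold below input, and PABP was 27.5-fold below set 3. Next in the order were 168 ± 11.5 in DNMT1, 179 ± 8.80 in CHD4, 188 ± 42.9 in PCAF, 197 ± 59.2 in HDAC1, 243 ± 45.4 in HUR, 246 ± 33.7 in WDR5 and 297 ± 64.8 in SUZ12 FPKM (± SD, n = 3).

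The middle of the RPPH1 order ran through 305 ± 103 in HNRNPH1, 325 ± 78.3 in PHF8, 329 ± 49.9 in CHD7, 365 ± 117 in NUP98 and 518 ± 12.8 in LSD1 FPKM. Higher still were 631 ± 141 in CTCF, 636 ± 50.8 in EZH2, 762 ± 90.8 in HNRNPU, 774 ± 194 in ADAR, 792 ± 116 in CBX3 and 1089.8 ± 81.4 in RBBP5 FPKM (n = 2 for EZH2). The 4 fRIPs without a call were phospho-CBX3 at 1112, 1149 and 1223 FPKM, CHD1 at 1451, 1102 and 998 FPKM, STAG2 at 1415 and 1164 FPKM and CBP at 1141, 1369 and 1790.3 FPKM. Only the last 3 overlapped the inputs, and the overlap was with set 1. Because the sets differ most for RPPH1, some calls depend on the set. With the nearest set in place of all inputs, its log2 fold changes shifted by 0.67 (1.59-fold) for the 13 proteins nearest to set 1, by -0.14 for the 5 nearest to set 2 and by -0.53 for the 6 nearest to set 3. Against the nearest set ADAR (-0.90), HNRNPU (-0.90) and CBX3 (-0.85) were no longer called, CBP (-1.20) and CHD1 (-1.09) were, and 17 of the 20 calls were shared. Against set 1, the nearest set of both, phospho-CBX3 was at -0.29 (1.22-fold below input; adjusted p = 0.419, limma) and STAG2 at -0.14. RPPH1 in RBBP5, at -1.05, was lost without RBBP5 replicate 1, input set 3 replicate 1 or input set 3 replicate 3, at -0.99, -0.99 and -0.96. RPPH1 was called in CHD1 without CHD1 replicate 1 (-1.10), and in CHD1 and phospho-CBX3 without any 1 library of input set 1 (-1.01 to -1.05). The highest fRIP mean was 14.2-fold the lowest, while the inputs spanned 2.80-fold.

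**Figure D2:**
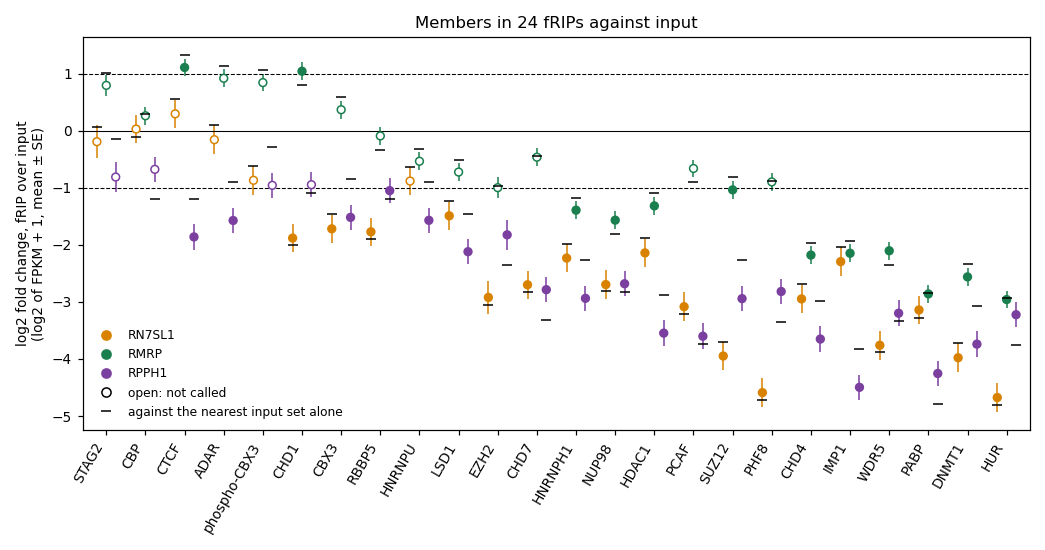
Log2 fold change of each RNA in each fRIP over input, on log2(FPKM + 1), with the SE of the fit (bars), filled circles for called values and black dashes for the value against the nearest input set alone. In most fRIPs RMRP lay above RN7SL1 and RPPH1, and dashes cross the 2-fold line (dashed at -1 and 1) for RMRP in CHD1, ADAR, phospho-CBX3, STAG2 and SUZ12 and for RPPH1 in ADAR, HNRNPU, CBX3, CBP and CHD1.

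Taken fRIP by fRIP, all 3 RNAs were depleted in 10, 2 of them in 7, 1 in 4 and none in 3. Each count is set beside the share of all 25442 tested genes that the same fRIP depleted or enriched. In HUR the log2 fold changes were RN7SL1 -4.68, RMRP -2.96 and RPPH1 -3.22, where 6.93% of genes were depleted and 6.42% enriched. PABP gave RN7SL1 -3.14, RMRP -2.86 and RPPH1 -4.25, with 14.7% of genes depleted and 11.1% enriched. For IMP1 they were RN7SL1 -2.29, RMRP -2.15 and RPPH1 -4.50, against 10.5% depleted and 4.23% enriched. All 3 are mRNA binding RBPs, and in each of them all 3 RNAs were at or below percentile 0.597 of all tested genes. The same held in the CAPs DNMT1 and WDR5, so this was not particular to mRNA binding RBPs. The fourth RBP with 3 depleted members was HNRNPH1, a splicing regulator, at RN7SL1 -2.23, RMRP -1.39 and RPPH1 -2.94, with 7.90% of genes depleted and 24.5% enriched.

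Among CAPs, DNMT1 gave RN7SL1 -3.98, RMRP -2.56 and RPPH1 -3.74, with 6.88% of genes depleted and 9.56% enriched. CHD4, the remodeler of the NuRD complex, gave RN7SL1 -2.95, RMRP -2.18 and RPPH1 -3.65, with 9.79% depleted and 2.91% enriched. WDR5 gave RN7SL1 -3.76, RMRP -2.10 and RPPH1 -3.20, with 6.71% depleted and 3.90% enriched. The nucleoporin NUP98, at RN7SL1 -2.70, RMRP -1.57 and RPPH1 -2.68, had 5.11% of genes depleted and 0.263% enriched. The deacetylase HDAC1, at RN7SL1 -2.14, RMRP -1.32 and RPPH1 -3.55, had 5.35% depleted and 8.42% enriched. SUZ12, at RN7SL1 -3.95, RMRP -1.04 and RPPH1 -2.94, had 8.60% depleted and 15.3% enriched. In these 6 fRIPs RMRP always fell by less than RN7SL1 and RPPH1.

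In 7 further CAP fRIPs RN7SL1 and RPPH1 were both depleted and RMRP was not. PHF8 showed the widest spread between the RNAs, at RN7SL1 -4.59, RMRP -0.90 and RPPH1 -2.82, where 1.71% of genes were depleted and 3.18% enriched. PCAF, an acetyltransferase, gave RN7SL1 -3.08, RMRP -0.66 and RPPH1 -3.60, with 8.54% depleted and 0.515% enriched. EZH2 gave RN7SL1 -2.92, RMRP -0.998 and RPPH1 -1.82, with 9.13% depleted and 10.5% enriched. CHD7, a remodeler, gave RN7SL1 -2.70, RMRP -0.46 and RPPH1 -2.79, in a fRIP with calls for only 0.896% of genes as depleted and 0.990% as enriched. The demethylase LSD1 gave RN7SL1 -1.49, RMRP -0.72 and RPPH1 -2.12, with 6.66% depleted and 0.814% enriched. CBX3 gave RN7SL1 -1.72, RMRP 0.37 and RPPH1 -1.52, with 3.65% depleted and 7.45% enriched. RBBP5 gave RN7SL1 -1.77, RMRP -0.09 and RPPH1 -1.05, with 0.731% depleted and 2.28% enriched.

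The remaining 7 fRIPs depleted 1 RNA or none. CTCF enriched RMRP and depleted RPPH1, at RN7SL1 0.30, RMRP 1.11 and RPPH1 -1.86, while 0.424% of genes were enriched and 0.790% depleted. CHD1 enriched RMRP and depleted RN7SL1, at RN7SL1 -1.88, RMRP 1.04 and RPPH1 -0.95, while 0.424% of genes were enriched and 1.00% depleted. ADAR depleted RPPH1, at RN7SL1 -0.16, RMRP 0.92 and RPPH1 -1.57, with 4.31% of genes depleted and 26.6% enriched. HNRNPU likewise depleted RPPH1, at RN7SL1 -0.88, RMRP -0.53 and RPPH1 -1.57, with 2.52% depleted and 13.1% enriched. No RNA was called in phospho-CBX3 (RN7SL1 -0.87, RMRP 0.84 and RPPH1 -0.96), where 2.91% of genes were depleted and 2.58% enriched. The same held for CBP (RN7SL1 0.03, RMRP 0.26 and RPPH1 -0.68), with 3.78% depleted and 9.08% enriched, and for STAG2 (RN7SL1 -0.19, RMRP 0.79 and RPPH1 -0.81), with 3.36% depleted and 0.979% enriched. Centring every library on the median of its tested genes moved a fRIP's fold changes by -0.98 (ADAR) to 0.61 (PCAF), by over 0.1 in 17 fRIPs. Relative to that median, RN7SL1 was also depleted in ADAR (-1.14) and HNRNPU (-1.47), and RMRP in HNRNPU (-1.13) and PHF8 (-1.12), with the calls of the main scale kept. Over all genes, the same centring moved the share of enriched among called genes by over 10 points in 19 fRIPs, for ADAR from 86.1% to 24.8% and for PCAF from 5.69% to 82.4%.

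The FPKM ratio of 2 RNAs within a library does not depend on how the library was scaled. Ranges below are such ratios, while folds over input and tests used FPKM + 1, which understates the fall of a ratio where RN7SL1 is low. A ratio can still depend on fragment length, because the counted RNAs differ in length (268 bases in RMRP and 638 in RPPH1). That was not tested. RMRP and RPPH1, the RNAs of the sister enzymes RNase MRP and RNase P, stood at a ratio of 0.554 to 1.36 in the 9 inputs, with a mean of 0.974. Every fRIP but HUR had all its libraries above all 9 inputs, and against the nearest input set all 24 fRIPs did. The 24 comparisons share these input libraries. The highest ratios were in PCAF, at 5.32 to 11.1, and CTCF, at 6.11 to 9.81, which are 7.67-fold and 7.83-fold above input. ADAR followed at 4.08 to 6.997, IMP1 at 3.81 to 6.17 and CHD7 at 4.39 to 5.06. The control STAG2 had 2.61 to 3.09, 3.04-fold above input. HUR, at 0.878 to 1.31, was the only fRIP to reach into the inputs, and was above the 3 libraries of its nearest set. Exact two-sided permutation tests, adjusted over 48 tests of 2 ratios, called the RMRP to RPPH1 ratio higher in 22 fRIPs and lower in 0. The exceptions were HUR (exact permutation p = 0.382, adjusted 0.386) and EZH2, with 2 libraries at 1.63 to 1.68 (exact permutation p = 0.0546, adjusted 0.0595).

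A planned ratio of RN7SL1 to RN7SL2 was not run, and the ratio of RN7SL1 to RMRP took its place after the data were seen. It was 0.0754 to 0.124 in the inputs. All libraries of 20 fRIPs were below every input, and in none were they above. The tests called it lower in 21 fRIPs and higher in 0, and with no pseudocount PABP was called as well (exact permutation p = 0.0409, adjusted 0.0446). PHF8 was lowest, at 0.00272 to 0.0180, 12.9-fold below input (20.5-fold without PHF8 replicate 3). With no pseudocount the fold was 15.1, or 25.4 without PHF8 replicate 3 and 9.88 without replicate 2. Next were CHD1 at 0.0110 to 0.0135 and SUZ12 at 0.00949 to 0.0151. The fRIPs that overlapped the inputs were IMP1, CBP, PABP and HNRNPU, at 0.0679 to 0.0993, 0.0646 to 0.114, 0.0703 to 0.0859 and 0.0704 to 0.0796. RMRP thus kept more of its input level than RN7SL1 in most fRIPs and more than RPPH1 in nearly all. In IMP1 and PABP, RPPH1 was the lowest of the 3, and RN7SL1 and RMRP fell nearly alike, at -2.29 and -2.15 in IMP1 and -3.14 and -2.86 in PABP.

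**Figure D3:**
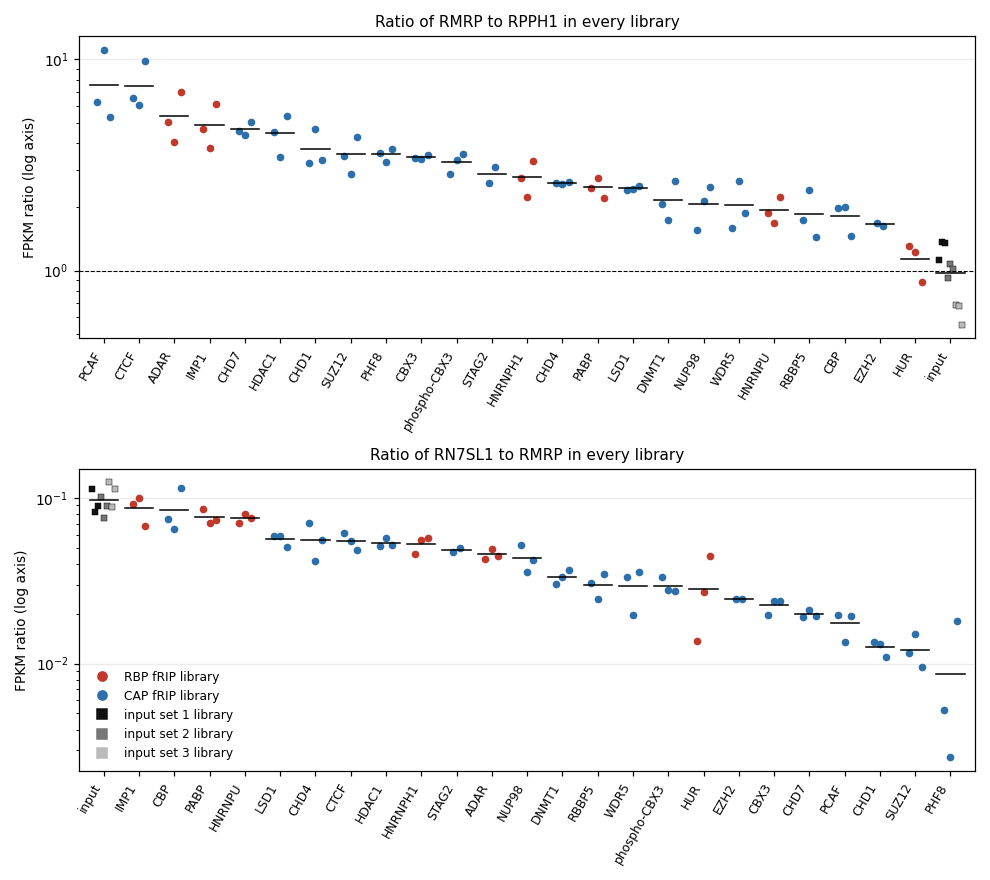
FPKM ratio of RMRP to RPPH1 (top, dashed line at 1) and of RN7SL1 to RMRP (bottom) in every library on log axes, ordered by group mean (bars), with RBP fRIPs in red, CAP fRIPs in blue and input squares shaded by set. Input sits at the low end of the RMRP to RPPH1 ratio, with only HUR reaching into its range, and at the high end of the RN7SL1 to RMRP ratio.

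Related targets were compared directly. WDR5 and RBBP5 are subunits of the same histone methyltransferase complexes, yet all 3 RNAs were lower in WDR5 than in RBBP5. RN7SL1 held 13.6, 10.9 and 18.4 FPKM in WDR5 and 52.5, 67.5 and 56.2 FPKM in RBBP5, 3.97-fold lower (log2 difference -1.99 ± 0.31, SE; adjusted p = 2.73e-07, limma). RMRP held 405, 556 and 516 against 1721, 2767 and 1611 FPKM, 4.03-fold lower (-2.01 ± 0.19; adjusted p = 2.78e-13). RPPH1 held 255, 209 and 275 against 997, 1151 and 1121 FPKM, 4.43-fold lower (-2.15 ± 0.27; adjusted p = 2.57e-09). None of these libraries overlapped, and both proteins share the same nearest input set. Of all tested genes, 12.9% were called lower in WDR5 than in RBBP5.

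SUZ12 and EZH2 are both core subunits of PRC2. RN7SL1 was 2.04-fold lower in SUZ12 than in EZH2 (12.1, 15.7 and 9.39 against 24.9 and 26.7 FPKM; adjusted p = 0.0102, limma), and RPPH1 was 2.17-fold lower (302, 359 and 229.9 against 601 and 672 FPKM; adjusted p = 0.00167). RMRP did not differ detectably, at 1049.6, 1034 and 989 and 1009.5 and 1095 FPKM (log2 difference -0.04, 95% interval -0.46 to 0.38). Among all tested genes, 13.1% of genes were called lower in SUZ12 than in EZH2. SUZ12 belongs with input set 1 and EZH2 with set 3, in which RPPH1 was higher, so this pair cannot be told apart from the sets. Against their own nearest sets the RPPH1 values were -2.27 for SUZ12 and -2.35 for EZH2, and the RN7SL1 values -3.70 and -3.05. Both calls were lost without SUZ12 replicate 3 (RN7SL1 -0.86 and RPPH1 -0.95), and the RN7SL1 call also without EZH2 replicate 2 (-0.98).

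Phospho-CBX3 and CBX3 did not pass the call for any of the 3 RNAs, although all 3 were higher in the mean with the antibody against the phosphorylated form. The log2 differences were 0.85 for RN7SL1 (95% interval 0.24 to 1.46; adjusted p = 0.0597, limma), 0.48 for RMRP (0.10 to 0.85; 0.0952) and 0.56 for RPPH1 (0.01 to 1.11; 0.198). Among all genes 0.330% were called higher in phospho-CBX3. Their libraries did not overlap for any of the 3 RNAs, and both fRIPs share input set 1. The share of all genes without overlap was not counted for this or the other pairs, so the separation only describes these libraries. With every library centred on its median, the RN7SL1 difference was 1.05 and passed the call.

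RBPs and CAPs were compared over the 24 protein means, 6 against 18. The log2 difference, RBP minus CAP, was 0.01 for RN7SL1 (95% interval -1.28 to 1.30; adjusted p = 0.993, limma), -0.93 for RMRP (-2.12 to 0.26; 0.295) and -0.75 for RPPH1 (-1.79 to 0.30; 0.339). None passed, and the intervals are wide enough to include 2-fold differences. Of all genes, 2.22% were called higher and 0.362% lower in RBPs. The spread within each class was large: for RMRP the RBPs ran from HUR at the bottom of the panel to ADAR near the top, and the CAPs from DNMT1 to CTCF.

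Across the 24 protein means on the log2 scale, the RNAs rose and fell together, with Pearson's r of 0.85 for RMRP and RPPH1, 0.77 for RN7SL1 and RMRP and 0.68 for RN7SL1 and RPPH1. The points share libraries and scaling, so these values only describe the panel. Among 9026 genes with a mean of at least 10 FPKM, the genes most like each RNA over the 25 group means were found by the same measure. For RN7SL1 they were MT-CO1 (r = 0.70), a mitochondrial mRNA, the pseudogene RP5-857K21.11 (0.67) and ANKRD30BL (0.66). For RMRP they were ANKRD30BL (0.85), WDR74 (0.76) and TERC (0.75), the RNA of telomerase. For RPPH1 they were TERC (0.77), WDR74 (0.75) and SNHG3 (0.71), a snoRNA host gene. The reference annotation places small RNA genes within 3 of these: the U2 snRNA gene RNU2-2P in WDR74, SNORA73B in SNHG3, and RNU6-1132P, RNA5-8SP5 and MIR663B in ANKRD30BL. TERC is itself a short folded RNA.

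Other short noncoding RNAs had rows as well. In a list of RNA polymerase II transcripts of similar size, RNU11, RNU12 and RNU4ATAC of the minor spliceosome and TERC, 25.0% of 96 values (4 RNAs in 24 fRIPs) were depleted and 7.29% enriched, against 5.52% and 6.90% over all tested genes. TERC was depleted in 10 fRIPs and enriched in 4, CBP, CHD1, phospho-CBX3 and RBBP5, with its highest value in RBBP5 (2.37) and its lowest in DNMT1 (-3.12). RNU12 had the highest mean log2 fold change of the list (-0.18) and RNU4ATAC the lowest. RNU4ATAC is listed at 0 FPKM in 37 of 79 libraries, among them every library of 6 fRIPs, and these 6 are the same fRIPs in which it was called depleted. Without these 6 values, 18 of 90 in the list were depleted and 7.78% were enriched. RNU11 is listed at 0 in 4 libraries. A value of 0 in a table without counts can be a failed estimate. Of other RNA polymerase III products, VTRNA2-1 and BCYRN1 had rows, and neither was called in any fRIP. VTRNA2-1 is listed at 0 FPKM in 47 of 79 libraries, among them 3 inputs and every library of 7 fRIPs, and the other 6 inputs held 14.9 to 48.5 FPKM. BCYRN1 lay under 1 FPKM in input (0.692), where with a pseudocount of 1 FPKM a 2-fold fall, and so a call of depletion, was not possible.

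**Figure D4:**
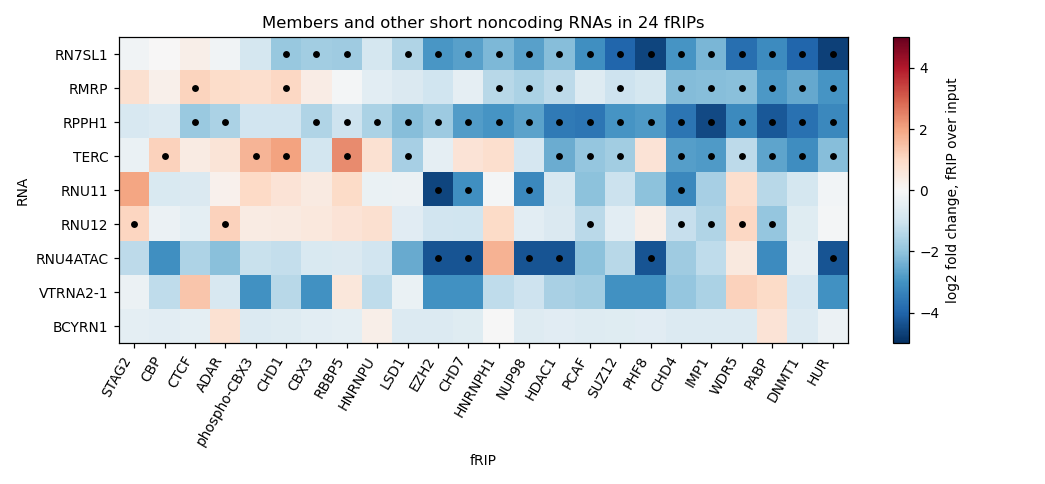
Log2 fold change over input (colour, red for higher and blue for lower) of the 3 RNAs and 6 other short noncoding RNAs in 24 fRIPs, ordered by the mean of the 3 RNAs, with dots on called values. RN7SL1 and RPPH1 are blue with dots over most of the row, TERC has 4 enriched and 10 depleted fRIPs, and VTRNA2-1 and BCYRN1 have no dot.

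The mRNAs of the partner proteins gave shares of calls nearer to those of all genes, 6.90% enriched and 5.52% depleted. The 8 mRNAs of the signal recognition particle and its receptor had 5.21% of values enriched and 8.33% depleted over the 24 fRIPs, with a median of the fRIP medians of -0.14. SRP54, whose protein binds signal peptides, had the highest mean log2 fold change (0.35, enriched in 3 fRIPs), and SRP14, whose protein sits on the Alu end of 7SL, the lowest (-0.35, depleted in 5). The 12 rows for RNase P and RNase MRP proteins had 9.38% of values enriched and 10.8% depleted, with a median of -0.06. A row of RPP14 was highest (0.41) and RPP21 lowest (-0.50, depleted in 7 fRIPs and enriched in 2). In PABP fRIP RPP21 had its highest value (1.96), where RPPH1 was at -4.25. The 7 mRNAs of 7SK particle proteins had 10.1% of values enriched and 4.17% depleted, with CDK9, the kinase held by that particle, highest (0.48) and HEXIM2 lowest (0.00). The 11 mRNAs of RNA polymerase III subunits had 5.30% of values enriched and 3.03% depleted, with POLR3E highest (0.36) and POLR3K lowest (-0.31). Annotated copies of 7SK and 7SL had 4.17% of values enriched and 2.08% depleted over the 4 that passed the filter, all of them at means of at most 3.16 FPKM in input. Apart from the copy at 3.16 FPKM, input means were 0.112, 0.599 and 0.807 FPKM. With a pseudocount of 1 FPKM, a call of depletion was not possible for these copies. The share of depleted values therefore cannot be set beside that of all genes.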

How the data were processed

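RNA from fRIP and input of K562 cells was sequenced by the authors after removal of ribosomal RNA, aligned with TopHat to hg19 and quantified against GENCODE v18 with Cuffdiff, and the deposited tables give FPKM per library. Neither read filters nor the strand setting is stated in the sources used here. Another deposited file, of comparisons, holds group FPKM, fold changes, test statistics, p-values and q-values of the authors, of which only the input FPKM was used, to find the nearest input set of each protein. All 79 value columns were mapped to labels. The labels number the STAG2 libraries 1 and 3 and the value columns 1 and 2, so the second was used without a number.

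A pseudocount of 1 FPKM was added, genes with at least 1 FPKM in 2 libraries were kept, and limma 3.58.1 (R 4.3.3) with an intensity trend was fitted once over all libraries, and p-values were adjusted (Benjamini-Hochberg) over the 25442 genes of each comparison. Fold changes are on the log2(FPKM + 1) scale and understate changes of low genes. Exact permutation tests were two-sided and were computed with numpy 2.4.6 and pandas 2.3.3 under Python 3.11.15. The fit was also run on simulated data, and the outcome is not given here. Replicates were made on different dates and from different lysates per the study's methods. Pairing by replicate number was checked on each library's deviations from its group mean. Same-numbered fRIP and nearest-set input libraries correlated at a mean of 0.12 and others at -0.06. The second value is largely set by the first, because deviations within a group cancel out. Every same-numbered pair was over 0.1 for 4 of 22 proteins (CHD1, NUP98, PCAF and WDR5), from the data alone. Sequences of RMRP and RPPH1 were read from GRCh37 and gene models from GENCODE v44 lifted to that assembly, and the sequence of RN7SL1 is not reported here.

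Genes named one by one are the members, the 3 genes most like each over group means, and the highest and lowest of each gene list. The values of TERC were singled out after they were seen. Members and lists were chosen with earlier results of these data known. Alternatives covered pseudocounts of 0.1 and 0.5 FPKM, filters, scaling, input sets, a replicate block, single-protein fits and each library left out.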

Additional observations from a re-analysis of the deposited data

Results flagged for a closer look

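Of 3 pairs of related proteins, 2 passed the test of the difference itself in at least 1 of these RNAs (limma, adjusted over all tested genes). WDR5 fRIP was lower than RBBP5 fRIP in RN7SL1 (log2 difference -1.99), RMRP (-2.01) and RPPH1 (-2.15), with no overlap between the 3 libraries of each protein. SUZ12 fRIP was lower than EZH2 fRIP in RN7SL1 (-1.03) and RPPH1 (-1.12), also without overlap, and this pair has different nearest input sets. Both SUZ12 calls were lost without SUZ12 replicate 3 (-0.86 and -0.95), and the RN7SL1 call also without EZH2 replicate 2 (-0.98). Against its own nearest set, RPPH1 was at -2.27 in SUZ12 and -2.35 in EZH2, and RN7SL1 at -3.70 and -3.05. The part that the input sets play in the second pair was not tested. No library stood apart from the other inputs in RN7SL1, RMRP, RPPH1 or their ratios.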

How the results depend on the processing

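Of 72 values (3 RNAs in 24 fRIPs), 49 kept their direction and their side of the call under all alternatives, 20 changed side under at least 1, and another 3 changed sign only. The number of fRIPs in which RMRP was enriched, 2 on all inputs, was 5 against input set 1 alone, 0 against set 2 alone and 4 against the nearest set of each protein, with 1 fRIP (CTCF) shared between the 2 and the 4. It ran from 1 to 2 when each library was left out in turn. RMRP in ADAR reversed to -0.79 with equal FPKM sums and to -0.060 with libraries centred on their medians. The other values that changed sign were close to input and were called on neither side of it, except for RN7SL1 in ADAR with centred libraries (-1.14) or equal FPKM sums (-1.85). Against input set 1 alone, RN7SL1 turned to 0.10 in ADAR and 0.060 in STAG2, where set 1 is also the nearest, and RMRP to 0.13 in RBBP5. RN7SL1 in CBP was -0.090 against set 2, -0.10 against set 3, its nearest, and -0.16 with equal FPKM sums. With each library left out, it ran from -0.23 to 0.18, and RMRP in RBBP5 from -0.34 to 0.055. The RBP minus CAP difference of RN7SL1 was -0.36 with centred libraries and ran from -0.40 to 0.50 when each protein was left out. The RN7SL1 difference between phospho-CBX3 and CBX3 became 1.05 and passed the call with libraries centred on their medians. With each library left out, the SUZ12 minus EZH2 difference ran from -1.20 to -0.86 for RN7SL1, from -1.27 to -0.95 for RPPH1 and from -0.10 to 0.020 for RMRP. The counts of depleted fRIPs stayed within 1.5 times: RN7SL1 18 to 20, RMRP 9 to 12 and RPPH1 16 to 24 over all alternatives.

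The replicate number as a block over all numbered libraries added RMRP in EZH2 (-1.01), for 11 depleted fRIPs in place of 10, and changed no other call. For CHD1, NUP98, PCAF and WDR5 with their nearest set, the block changed no call against the same libraries without it. The ratio of RN7SL1 to RN7SL2 was not run. With each library left out, the fold of a ratio moved by over 1.5 times once, for RN7SL1 to RMRP in PHF8 without replicate 3 (20.5-fold in place of 12.9-fold below input), and with no pseudocount it was 15.1-fold, 25.4-fold without replicate 3 and 9.88-fold without replicate 2. Both alternatives were chosen after the data were seen. With no pseudocount the RN7SL1 to RMRP ratio was called lower in 22 fRIPs in place of 21, and the counts of fRIPs above or below every input did not change. Cause of these changes was not tested. Estimated depth was lowest in ADAR, and the RN7SL1 row may share reads with its gene copies.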
